A study of Mus musculus with 124 samples.

Results

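The comparison set the response of the cerebral cortex to 3 h of enforced wakefulness against the response of the liver in the same mice. A gene entered if it was named in both deposited tables. Of 17108 named genes in cortex and 13338 in liver, 12199 were named in both, and 12194 were tested after 5 symbols that stood on several entries were left out. For each gene the change in a tissue was the mean of the deprived mice minus the mean of the undisturbed mice, and the tissue difference (the interaction) was the cortex change minus the liver change. A positive tissue difference therefore means that the gene rose more, or fell less, in cortex than in liver.

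RNA of cortex and of liver was sequenced from each of 62 mice, and the comparison uses the 12 libraries of 6 of them. The 3 deprived mice (T27S2, T27S3 and T27S5) had been kept awake by gentle handling from light onset and were killed 3 h later, at T27 in hours of the experiment. The 3 control mice (T3N2, T3N3 and T3N4) were left to sleep and killed 3 h after light onset, at zeitgeber time 3. All mice were 11 to 12 weeks old, lived in a light-dark cycle with phases of 12 h and had free access to food, and neither a strain nor a genetic manipulation is given in the sources used here. All 12 libraries carry the batch label 1, each came from 1 mouse, and values below are listed in the order of the mice just given. Values are log2 CPM (read counts scaled to a fixed library total, on a log2 scale), normalised separately by tissue, so levels were compared within a tissue and never between tissues. The number of reads per library cannot be had from such values. Antilog values summed to between 943387 and 1035410 CPM per library. The root mean square difference between a library and the mean of its group mates was 0.226 to 0.250 log2 units in cortex and 0.292 to 0.417 in liver. Summed hepatocyte markers reached 116000 to 127000 CPM in every liver library, and summed neuron markers 11900 to 13100 CPM in every cortex library.

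Sleep loss raises activity-dependent transcription in cortical neurons, whose immediate early genes answer calcium and cyclic AMP signals within minutes and are then restrained by phosphatases and other feedback regulators. In the liver, staying awake at a time of rest changes feeding, body temperature and hormone levels, which act on heat shock factors, nuclear receptors and insulin-regulated lipid genes. Both organs hold the same circadian clock, in which the Period genes are repressors that can also be induced directly by external signals.

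At 3 h the tissues differed in their response at 259 of 12194 genes (2.12%, limma, Benjamini-Hochberg adjusted p under 0.05). The cortex change lay above the liver change at 169 genes (1.39%) and below it at 90 genes (0.738%), and 84 of the 259 differed by more than 2-fold. At an unadjusted p under 0.05 the count was 1678. The balance of the directions depended on the scaling: the share above was 65.3% as deposited and 49.0% after each library had been centred on its median, with 239 calls. The median tissue difference over all genes was 0.0064 as deposited and −0.03 after centring. Of the 169 genes above, 104 were higher in deprived cortex with no call in liver, 31 were lower in deprived liver with no call in cortex, and 7 moved in opposite directions with a call in each tissue. A further 26 had no call in either tissue alone, and 1, Srebf1, fell in both. Of the 90 genes below, 39 fell in cortex only, 31 rose in liver only, 7 rose in both, 3 went in opposite directions and 10 had no call in either tissue alone. Leaving out 1 mouse in both tissues left at most 171 calls, of which 119 to 148 were among the 259. The lowest counts came without T3N3 (74 above 0 and 50 below), T3N4 (126) and T3N2 (133), and the others were 163 without T27S3, 165 without T27S2 and 171 without T27S5. Leaving out a single library gave 147 to 292 calls, with fewest when the cortex library of T27S5 was left out (147) and 168 to 172 without the cortex library of T3N2 (168), T3N4 (169) or T27S3 (169) or the liver library of T3N3 (172). With cell numbers unknown, fewer cells of a type and less RNA per cell cannot be told apart in these bulk samples.

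Within single tissues the same 12194 genes gave 2101 calls in cortex (17.2%, 1210 higher and 891 lower) and 180 in liver (1.48%, 101 higher and 79 lower). The precision was unequal: the median standard error (SE) of a change was 0.0719 in cortex and 0.156 in liver. A gene called in cortex alone is therefore not shown to differ between the tissues unless its tissue difference was called too. Among all 12194 genes, 1167 rose in cortex without a call in liver, and 104 of these had a called tissue difference. The liver count rested on few mice, with 88 to 127 of 13338 genes called without T3N4 (88), T27S2 (90), T3N3 (100), T27S3 (106) or T3N2 (127), against 200 with all of them.

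**Figure D1:**
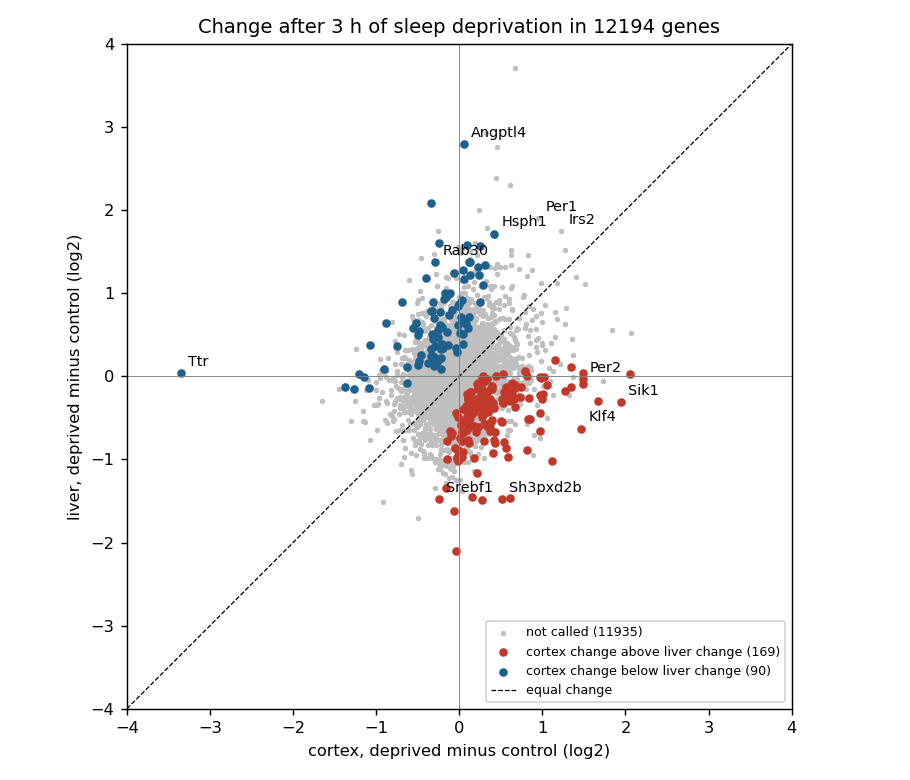
Each point is 1 of 12194 genes, with its change in cortex on the x axis and in liver on the y axis, both in log2 units (deprived minus control, 3 mice a group). Red points are the 169 genes whose cortex change lay above the liver change and blue points the 90 genes with the reverse, and the dashed line marks an equal change in both tissues.

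Several of the large differences above 0 came from genes that rose in deprived cortex. Serinc2, a member of the serine incorporator family (chromosome 4, 130253495 to 130279205), had cortex levels of 2.26, 1.98 and 1.42 log2 CPM in the controls and 3.98, 3.82 and 4.01 in the deprived mice. The groups did not overlap, and the rise was 4.15-fold (log2 2.05 ± 0.27 SE, adjusted p = 3.37e-07, limma). In liver its levels were 2.44, 2.68 and 2.62 in controls and 2.52, 2.49 and 2.83 in deprived mice, which overlapped, and the tissue difference was 2.02 ± 0.33 (adjusted p = 7.31e-05). Klf4, a zinc finger transcription factor that belongs to the immediate early genes (chromosome 4, 55527143 to 55532466), had cortex levels of 2.19, 2.33 and 2.46 in controls and 3.44, 3.86 and 4.07 in deprived mice. Its liver levels were 0.30, −0.04 and 0.04 in controls and −1.14, −0.22 and −0.21 in deprived mice. All deprived cortices thus lay above and all deprived livers below their controls, although only the cortex change was called (log2 1.46 ± 0.20, against −0.63 ± 0.29 in liver, adjusted p = 0.345), and the tissue difference was 2.09 ± 0.36 (adjusted p = 9.45e-05). The calls of Serinc2 and Klf4 held under all 27 alternative settings, which include leaving out each mouse and each library.

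Sik1, a kinase of the salt-inducible family that restrains cyclic AMP signalling (chromosome 17, 31844250 to 31855804), had cortex levels of 2.85, 3.36 and 2.30 in controls and 4.55, 5.01 and 4.80 in deprived mice, a 3.86-fold rise. Its liver levels of 4.37, 4.67 and 4.58 in controls and 4.64, 4.51 and 3.53 in deprived mice overlapped, with the lowest value in T27S5. The tissue difference was 2.26 ± 0.54 (adjusted p = 0.00837), and it was not called without mouse T3N4 (0.089) or T27S5 (0.0847) or without the cortex library of T3N4 (0.0502). Gadd45a, a stress-induced regulator of growth arrest, had cortex levels of 1.88, 1.84 and 1.54 in controls and 2.74, 3.00 and 2.88 in deprived mice. In liver it lay at 1.76, 1.68 and 1.86 in controls and at 0.65, 0.18 and 1.40 in deprived mice, so the groups separated in opposite directions. The liver change of −1.02 ± 0.40 was not called (adjusted p = 0.213), and the tissue difference of 2.14 ± 0.47 (adjusted p = 0.00373) was lost only without mouse T27S3 (0.0623) among the settings run. Nab2, a corepressor of the EGR transcription factors, rose in cortex by 0.81 ± 0.18 and had a liver change of −0.89 ± 0.29 (adjusted p = 0.119). Its tissue difference of 1.70 ± 0.35 (adjusted p = 0.00181) was lost without mouse T27S3 (0.0866) and when only the 12 libraries were fitted (0.0702).

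Immediate early genes as a group moved in cortex and had no call in liver. Of 16 immediate early transcription factors in both tables, 9 rose and 1 fell in cortex (9.92% of all genes rose and 7.31% fell), none was called in liver (0.828% rose and 0.648% fell), and 3 had a tissue difference above 0 (Klf4, Ier5 and Klf2), against 1.39% of all genes. At an unadjusted p under 0.05 the liver calls of all genes numbered 1528. Median changes were 1.08 in cortex and 0.18 in liver, and over all genes 0.005 and −0.0025. Leaving out 1 mouse left 6 to 11 risers in cortex and 1 to 3 called tissue differences, with 1 without T27S3. Ier5, an immediate early response gene, rose by 1.00 ± 0.14 in cortex with −0.28 ± 0.27 in liver. Its tissue difference of 1.28 ± 0.31 (adjusted p = 0.00907) was lost without mouse T27S3 (0.184) or T3N4 (0.0667) or without the liver library of T27S3 (0.0791).

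Fos and Egr1, the best known members, had no called tissue difference. Fos, a subunit of the AP-1 transcription factor, had cortex levels of 4.06, 5.08 and 3.83 in controls and 5.78, 6.57 and 6.11 in deprived mice, and its tissue difference was 1.27 ± 0.93 (adjusted p = 0.614). The 95% interval of that difference ran from −0.58 to 3.12, so an equal change and a far larger rise in cortex both lay inside it. The cortex rise of Fos (1.83 ± 0.60, adjusted p = 0.0285) was lost without T3N2 (0.0947), T3N4 (0.128), T27S3 (0.105) or T27S5 (0.0653). Egr1 rose in cortex by 1.27 ± 0.30, while its liver levels were 5.80, 3.20 and 3.17 in controls and 5.35, 5.71 and 5.70 in deprived mice. One control liver, T3N2, stood as high as the deprived livers, and the interval of the tissue difference ran from −2.66 to 2.15.

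Immediate early effectors, the enzymes and structural proteins induced by activity, were mostly called in cortex. Of 16 in both tables, 14 rose in cortex (against 9.92% of all genes) and none was called in liver (1.48%). A tissue difference above 0 was called for 4 (Sik1, Homer1, Pim1 and Trib1), against 1.39% of all genes. Median changes were 0.81 in cortex and 0.09 in liver. Leaving out 1 mouse left 9 to 13 risers in cortex, with 9 without T3N4 or T27S3. The called tissue differences then numbered 0 without T3N4 or T27S5, 1 without T3N2, 2 without T27S3 and 4 without T3N3 or T27S2. Homer1, a scaffold of the postsynaptic density, had cortex levels of 7.84, 8.24 and 8.24 in controls and 9.12, 9.30 and 9.34 in deprived mice. In liver it lay at 3.60, 3.48 and 3.81 in controls and 4.02, 3.93 and 3.53 in deprived mice, which overlapped. The tissue difference of 0.95 ± 0.24 (adjusted p = 0.0141) was lost without mouse T3N2 (0.103), T3N4 (0.0663) or T27S5 (0.141), without the cortex library of T3N2 (0.08) and without the liver library of T27S5 (0.0647) or T3N4 (0.0535).

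MAPK feedback genes, which switch off growth factor and activity signalling, also had calls in cortex and none in liver. Of 15 in both tables, 10 rose and 1 fell in cortex (9.92% and 7.31% of all genes), and none was called in liver (1.48%). A tissue difference above 0 was called for 4 (Dusp4, Dusp14, Spred2 and Spred3), against 1.39% of all genes. Median changes were 0.54 in cortex and −0.0052 in liver. The 4 became 0 without mouse T3N2, 1 without T3N4, T27S3 or T27S5 and 3 without T3N3 or T27S2. Dusp4, a nuclear phosphatase of MAP kinases, had cortex levels of 2.90, 3.04 and 2.34 in controls and 4.21, 4.54 and 4.54 in deprived mice, a 3.18-fold rise. Its liver levels of 1.28, 0.14 and 0.45 in controls and 0.48, 0.25 and 0.25 in deprived mice overlapped. The tissue difference of 1.97 ± 0.52 (adjusted p = 0.0204) was lost without mouse T3N2 (0.126), T3N4 (0.104), T27S3 (0.0867) or T27S5 (0.082), without the cortex library of T27S3 (0.0525), T27S5 (0.0556) or T3N4 (0.0905), and without the liver library of T3N2 (0.0974). Spred3, which blocks the step from Ras to Raf, rose by 0.54 ± 0.10 in cortex with −0.78 ± 0.30 in liver, a difference of 1.32 ± 0.31 (adjusted p = 0.00608), lost without mouse T27S2 (0.0684) or T3N2 (0.0762). Of Dusp14 (1.56), Spred2 (0.73), Klf2 (1.24), Pim1 (1.34) and Trib1 (1.47), each call was lost under several of the omissions, with adjusted p up to 0.194, 0.168, 0.227, 0.256 and 0.291. Those highest values came without mouse T27S3 for Dusp14, T3N3 for Klf2 and T3N4 for the other 3. With the mouse as a block, Spred2 was not called (0.0714). With the 12 libraries alone Klf2 (0.0653) and Pim1 (0.0667) were not called, with the liver factor as a covariate Dusp14 (0.0504), Klf2 (0.0626) and Trib1 (0.0626) were not, and after centring Klf2 (0.0583) and Trib1 (0.0541) were not.

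The Period genes behaved unequally in the pair of tissues. Per2, a repressor of the clock (chromosome 1, 91415982 to 91459324), had cortex levels of 5.06, 4.70 and 4.56 in controls and 6.16, 6.16 and 6.46 in deprived mice, a 2.80-fold rise (log2 1.49 ± 0.17, adjusted p = 2.02e-08). Its liver levels of 3.31, 3.95 and 3.89 in controls and 3.66, 3.54 and 3.86 in deprived mice overlapped (change −0.03 ± 0.33), and the tissue difference was 1.52 ± 0.38 (adjusted p = 0.0146). That call was lost without mouse T3N3 (0.101), T3N4 (0.124), T27S3 (0.0581) or T27S5 (0.0508), without the cortex library of T3N4 (0.0555) or T27S5 (0.0552) and without the liver library of T3N3 (0.0527).

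Per1, its close relative and a direct target of cyclic AMP and glucocorticoid signals (chromosome 11, 69095217 to 69109960), rose in both organs. Its cortex levels were 6.33, 6.62 and 5.78 in controls and 6.97, 7.27 and 7.36 in deprived mice, and its liver levels 1.96, 3.06 and 0.96 in controls and 4.39, 3.91 and 3.40 in deprived mice. Neither pair of groups overlapped, and the rises were 1.94-fold in cortex (adjusted p = 0.0077) and 3.75-fold in liver (adjusted p = 0.0404). The cortex call was lost without T3N4 (0.0963) and the liver call without T3N2 (0.112), T3N4 (0.33), T27S2 (0.205) or T27S3 (0.107). The tissue difference of −0.95 ± 0.59 was not called (adjusted p = 0.518, 95% interval −2.13 to 0.23). Among 19 core clock genes in both tables, 5 rose and 1 fell in cortex, where 9.92% of all genes rose and 7.31% fell. Only Per1 was called in liver (1.48% of all genes), and only Per2 had a called tissue difference (2.12%). The clock medians were 0.03 in cortex and −0.01 in liver.

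**Figure D2:**
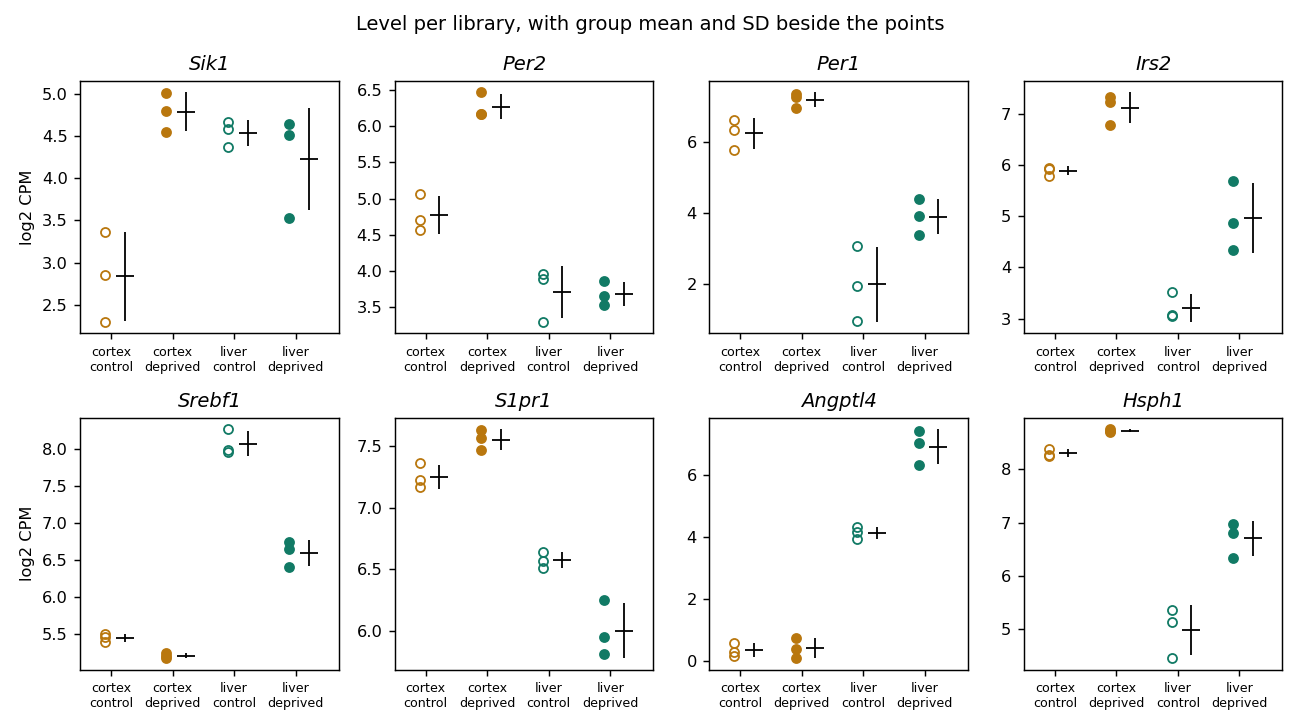
Levels of 8 genes in each of the 12 libraries, in log2 CPM on the y axis, with open points for control mice and filled points for deprived mice, and the mean and SD of each group of 3 beside its points. Sik1 and Per2 separate in cortex only, Angptl4 in liver only, Per1, Irs2 and Hsph1 rise in both tissues, Srebf1 falls in both and S1pr1 moves in opposite directions.

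Other differences above 0 came from genes that fell in liver. Rab36, a small GTPase of vesicle transport (chromosome 10, 75037058 to 75054748), had liver levels of 1.42, 1.26 and 1.44 in controls and −0.36, −0.41 and 0.01 in deprived mice. The groups stood far apart, a 3.08-fold fall (log2 −1.62 ± 0.32, adjusted p = 0.00275), while the cortex change was −0.06 ± 0.06, and the tissue difference of 1.56 ± 0.32 (adjusted p = 0.00167) held under all 27 settings. Tnfaip8l3, a protein that transfers phosphoinositides (chromosome 9, 54023405 to 54068388), had liver levels of −0.22, 1.20 and 0.51 in controls and −0.53, −2.00 and −2.27 in deprived mice. It fell 4.27-fold in liver, a change not called without T3N3 (0.069), with a cortex change of −0.04 ± 0.10. A tissue difference of 2.05 ± 0.45 (adjusted p = 0.00325) was lost without mouse T3N3 (0.0639) and when only the 12 libraries were fitted (0.0938).

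Srebf1, which encodes the transcription factor SREBP1 that turns on fatty acid synthesis under insulin (chromosome 11, 60199089 to 60222581), had liver levels of 7.96, 7.99 and 8.27 in controls and 6.65, 6.40 and 6.74 in deprived mice, a 2.78-fold fall. In cortex it lay at 5.49, 5.39 and 5.46 in controls and 5.20, 5.17 and 5.24 in deprived mice, a smaller fall of 1.19-fold that also left no overlap. It was the single gene called lower in both tissues with a called tissue difference (1.23 ± 0.33, adjusted p = 0.0221). That call was lost without any 1 of the 6 mice (adjusted p 0.0508 to 0.119, the highest without T3N4), without the cortex library of T27S5 (0.0543) or T3N3 (0.0527) and without the liver library of T27S3 (0.0614) or T3N4 (0.0685). The cortex fall (adjusted p = 0.041) was lost without T3N2 (0.131), T3N4 (0.106), T27S2 (0.0935), T27S3 (0.108) or T27S5 (0.0649). Among 20 fatty acid synthesis genes in both tables, 1 rose and 3 fell in cortex, where 9.92% of all genes rose and 7.31% fell. Srebf1 alone was called in liver (1.48% of all genes were), and no other member had a called tissue difference.

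Cholesterol synthesis and uptake genes had lower values in deprived liver without a call. None of 24 was called in liver or in the tissue difference, where 1.48% and 2.12% of all genes were. In cortex 3 were higher and 3 lower, against 9.92% and 7.31% of all genes. The medians were 0.02 in cortex, −0.44 in liver and 0.46 for the tissue difference. An unlabelled factor had been removed from the deposited liver values, and in it the control T3N2 differs in level from T3N3 and T3N4. The 3 deprived livers share a level, which could not be compared with those of the controls. Without the liver library of T3N2, the tissue difference was called for the members named by rule Hmgcs1 (1.32, adjusted p = 0.0125), Msmo1 (1.20, 0.0125) and Mvk (1.09, 0.0125). They encode enzymes of early and late steps of the pathway. Members not named by rule were not looked up in that setting of the tissue difference. Of all 24 members, 3 were called lower in liver without that library, among them Hmgcs1 (−1.24, adjusted p = 0.0431) and Mvk (−1.07, 0.0226). Without the mouse T3N2 in both tissues, 4 of the 24 had a called tissue difference above 0. Without any other single mouse, no member was called in liver or in the tissue difference. With the unlabelled liver factor as a covariate, no member had a called tissue difference either.

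Many of the named differences below 0 came from genes that rose in liver. Angptl4, a secreted inhibitor of lipoprotein lipase that fasting and glucocorticoids induce (chromosome 17, 33773750 to 33781830), had liver levels of 4.32, 4.17 and 3.94 in controls and 7.44, 7.04 and 6.33 in deprived mice. Each deprived liver exceeded each control by a wide margin, a 6.94-fold rise (log2 2.79 ± 0.45, adjusted p = 0.000411). In cortex its levels were low and overlapped, at 0.17, 0.30 and 0.59 in controls and 0.75, 0.40 and 0.09 in deprived mice. The tissue difference was −2.74 ± 0.60 (adjusted p = 0.00309) and held under all 27 settings.

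Slc25a34, a carrier of the inner mitochondrial membrane (chromosome 4, 141618824 to 141623821), had liver levels of 1.41, 1.50 and 1.78 in controls and 3.64, 3.10 and 2.77 in deprived mice, with a cortex change of −0.24 ± 0.17 and a tissue difference of −1.85 ± 0.33 (adjusted p = 0.000234). Lpin2, a phosphatidate phosphatase of triglyceride synthesis, had liver levels of 7.37, 7.37 and 7.26 in controls and 9.14, 8.75 and 8.24 in deprived mice, a 2.60-fold rise against 1.09-fold in cortex, where its call (adjusted p = 0.025) was lost without T3N3 (0.0828), T3N4 (0.0702), T27S2 (0.0926) or T27S5 (0.0545). The liver groups of both genes stood apart, with the highest value in T27S2. St3gal5, the sialyltransferase that makes the ganglioside GM3, had liver levels of 5.39, 5.56 and 4.89 in controls and 6.85, 6.69 and 6.04 in deprived mice. Rapgef4, the cyclic AMP sensor EPAC2, had liver levels of 7.19, 7.08 and 7.05 in controls and 8.20, 8.68 and 8.27 in deprived mice. Their tissue differences were −1.31 ± 0.24 and −1.23 ± 0.24 (adjusted p = 0.000377 and 0.000813), that of Lpin2 was −1.25 ± 0.27 (0.00219), and all of them held under all 27 settings, as did that of Slc25a34.

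Ttll8, a tubulin glycylase, had a larger but less certain difference of −2.43 ± 0.61 (adjusted p = 0.0139), with a liver rise of 2.09 ± 0.54 against a cortex change of −0.34 ± 0.27. It was lost without mouse T27S3 (0.321) or T3N2 (0.186), without the cortex library of T27S3 (0.0786) or T3N2 (0.0588) and without the liver library of T27S3 (0.12) or T3N2 (0.0718), and also with a pseudocount of 1 CPM (0.168) and with the 12 libraries alone (0.144). Its liver call was lost without any library other than T27S5 (adjusted p 0.0603 to 0.279, the highest without T27S3). Klf11, a repressor of the Krüppel-like family, fell in cortex by 0.68 on the log2 scale (−0.68 ± 0.14) with a liver change of 0.90 ± 0.35 (adjusted p = 0.219). Its tissue difference of −1.58 ± 0.39 (adjusted p = 0.012) was lost without mouse T27S2 (0.123), T3N3 (0.104) or T3N4 (0.0589), without the liver library of T27S2 (0.123) or T3N3 (0.0546), and with the 12 libraries alone (0.0818).

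The lists of fasting, glucocorticoid-responsive and insulin genes held 3 called tissue differences: Angptl4, Foxo1 and Foxo3. In all 3 the cortex change lay below the liver change, as was called for 0.738% of all genes. Of 15 genes of fatty acid oxidation and fasting, 2 rose in liver (against 0.828% of all genes) and none was called in cortex (17.2%). Angptl4 alone had a called tissue difference. Of 17 glucocorticoid-responsive genes, 8 rose in cortex (against 9.92% of all genes), 1 rose in liver (against 0.828%) and Angptl4, which stands on both lists, alone had a called tissue difference, with median changes of 0.31 in cortex and 0.60 in liver. Tsc22d3, a glucocorticoid-induced leucine zipper protein, had similar changes of 0.64 ± 0.08 in cortex (adjusted p = 4.02e-07) and 0.82 ± 0.30 in liver (0.175), and the interval of its tissue difference ran from −0.81 to 0.45. Of 13 genes of gluconeogenesis and insulin signalling, 3 rose and 2 fell in cortex (9.92% and 7.31% of all genes) and 1 rose in liver (0.828%). Foxo1 and Foxo3, transcription factors that insulin keeps out of the nucleus, had tissue differences of −0.52 ± 0.15 and −0.55 ± 0.14. Foxo3 fell in cortex (−0.22 ± 0.06) with a liver change of 0.33 ± 0.13 (adjusted p = 0.206), and its tissue difference (adjusted p = 0.0148) was lost without mouse T27S2 (0.185), T3N2 (0.0646), T3N3 (0.06) or T3N4 (0.0553), or without the cortex (0.0512) or liver (0.0801) library of T27S2. That of Foxo1 (adjusted p = 0.0463) was lost without mouse T27S2, T27S3, T3N3 or T3N4 (0.159 to 0.322), without any 1 cortex library (0.0635 to 0.124) and without the liver library of T27S2, T27S3, T3N3 or T3N4 (0.131 to 0.169). The Foxo1 call was also lost with the 12 libraries alone (0.169), with the liver factor as a covariate (0.0606) and after rescaling over the shared genes (0.0524). Of 9 growth hormone and IGF genes, 2 rose and 1 fell in cortex (9.92% and 7.31% of all genes), and none was called in liver (1.48%). Ghr had a called tissue difference of −0.42, a direction called for 0.738% of all genes. Among other omissions, that call was lost without mouse T3N2 (0.148), T3N3 (0.0639), T27S2 (0.0892) or T27S3 (0.0758).

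Heat shock genes outside the endoplasmic reticulum rose in both organs, and the rise was larger in liver where the difference was called. Most are cytosolic, but the list also holds the mitochondrial chaperonin genes Hspd1 and Hspe1. Of 22 measured in both tables, 11 rose in cortex (against 9.92% of all genes) and 9 in liver (0.828%), 6 of them in both, and none fell. A tissue difference below 0 was called for 5, against 0.738% of all genes. The median change was 0.17 in cortex and 0.63 in liver, and the median tissue difference was −0.47. The 5 were Hsph1, Hspa8, Hsp90aa1, Hsp90ab1 and Ahsa1, of which Ahsa1 was named after its values were seen. The liver rise was less tied to single mice than the tissue difference. Leaving out 1 mouse left 6 to 9 members called higher in liver and 6 to 10 in cortex, whereas the tissue difference was called at 0 without T3N2, 1 without T27S5, 3 without T3N3, 4 without T27S2 or T27S3 and 5 without T3N4.

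**Figure D3:**
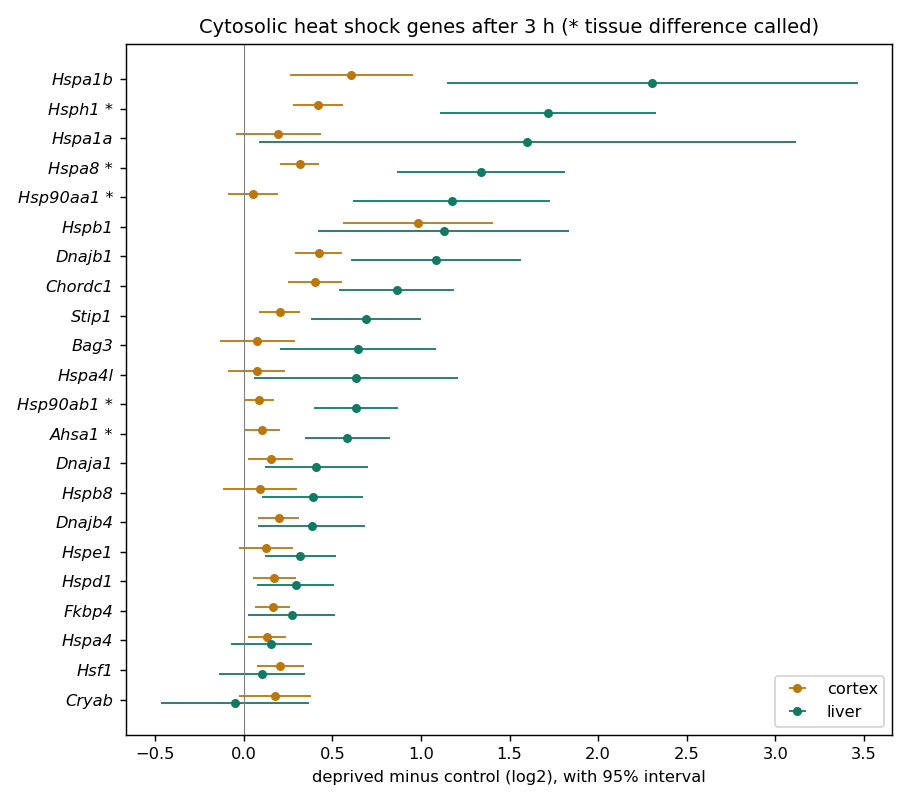
Changes of 22 heat shock genes after 3 h, in log2 units on the x axis, with 95% intervals, in cortex (brown) and liver (green). Most are cytosolic, and Hspd1 and Hspe1 are mitochondrial. An asterisk marks the 5 genes whose tissue difference was called, and the liver point lies to the right of the cortex point for 20 of the 22.

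Hsph1, a large HSP110 chaperone that reloads HSP70 (chromosome 5, 149614287 to 149636376), had liver levels of 4.46, 5.15 and 5.35 in controls and 6.34, 6.81 and 6.97 in deprived mice, a 3.29-fold rise. Its cortex levels were 8.25, 8.38 and 8.26 in controls and 8.71, 8.75 and 8.70 in deprived mice, a 1.34-fold rise, also without overlap. The tissue difference was −1.30 ± 0.32 (adjusted p = 0.0109), lost without mouse T3N2 (0.117), T27S3 (0.0501) or T27S5 (0.0767) or without the liver library of T3N2 (0.08). Hspa8, the constitutive HSP70 of the cytosol, lay in liver at 8.71, 9.06 and 9.01 in controls and 10.11, 10.21 and 10.48 in deprived mice. In cortex it lay at 9.79, 9.89 and 9.80 in controls and 10.13, 10.20 and 10.10 in deprived mice, so it too separated in both organs, and its tissue difference of −1.02 ± 0.25 (adjusted p = 0.00903) was lost without mouse T27S5 (0.0765) or T3N2 (0.0729).

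The HSP90 genes and their activator were called at 3 h in liver and not in cortex. Hsp90aa1, the inducible cytosolic HSP90, had liver levels of 6.27, 6.97 and 7.40 in controls and 7.94, 7.98 and 8.24 in deprived mice, and cortex levels of 9.21, 9.24 and 9.13 in controls and 9.16, 9.38 and 9.19 in deprived mice, which overlapped. Its tissue difference of −1.12 ± 0.29 (adjusted p = 0.0183) was lost without mouse T3N2 (0.221), T3N3 (0.063), T27S2 (0.058) or T27S5 (0.107), without the cortex library of T27S5 (0.0516), without the liver library of T27S5 (0.0526) or T3N2 (0.148), and with the 12 libraries alone (0.0696). Its liver call was lost without T3N2 (0.163) or T27S5 (0.0625). Hsp90ab1, the constitutive form, had a liver change of 0.63 ± 0.12 and a cortex change of 0.09 ± 0.04 (adjusted p = 0.152), with a tissue difference of −0.55 ± 0.12 (adjusted p = 0.00522) that was lost only without mouse T3N2 (0.0678) among the settings run. Ahsa1, which stimulates the ATPase of HSP90, had a liver change of 0.58 ± 0.12 and a tissue difference of −0.48 ± 0.13 (adjusted p = 0.0255), lost without mouse T3N2, T3N3, T27S2 or T27S5 (0.087 to 0.201), without the cortex library of T3N2, T3N3, T27S2 or T27S5 (0.054 to 0.0797) and without the liver library of T3N2 (0.12) or T27S2 (0.066). Hspa1b, the stress-inducible HSP70, is nearly identical to its neighbour Hspa1a, so reads of the pair may have been split and its values (0.61 ± 0.17 in cortex and 2.31 ± 0.58 in liver) are uncertain.

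Promoter windows of 300 bases (250 before to 50 after the transcription start, RefSeq, build GRCm38.p6) were searched because the heat shock genes moved together. Heat shock factor binds inverted repeats of the pentamer nGAAn, so the letters GAANNTTC and TTCNNGAA were sought. Both are their own reverse complement, so a match holds for both strands, and matches of one kind can overlap matches of the other. Windows were found for 9395 of the 12194 genes, of which 661 (7.04%) held the first and 771 (8.21%) the second, and 1310 (13.9%) held either. Of 22 heat shock genes 17 had a window, and 11 (64.7%) held the first, 5 (29.4%) the second and 12 (70.6%) either. These windows are not all separate. Those of Hspd1 and Hspe1 overlap and share their heat shock matches, and the near-identical Hspa1a and Hspa1b each hold a match at −104. Of the 12 genes with a match 7 rose in cortex and 3 in liver, and of the 5 without one 2 rose in cortex and 3 in liver. The 5 genes with no window include 3 of those with a called tissue difference (Hspa8, Hsp90aa1 and Hsp90ab1), so these counts leave them out, and the difference between them was not tested. Among genes with a called tissue difference, 20 of 134 windows above 0 (14.9%) and 11 of 64 below 0 (17.2%) held either. The windows of 4 genes are shown because they cover the range of responses, with matches in capitals: Hsph1 (chr5:149636266-149636565, minus strand) with the largest called difference of the list, Chordc1 (chr9:18292017-18292316, plus strand), an HSP90 co-chaperone that rose in both organs (0.40 ± 0.08 and 0.86 ± 0.16) with the most matches, Hspb1 (chr5:135887669-135887968, plus strand), a small heat shock protein with similar values in both (0.98 ± 0.21 and 1.13 ± 0.35, the latter not called, adjusted p = 0.0917), and Ahsa1 (chr12:87266478-87266777, plus strand), which has a called difference and no match. In the Hsph1 window the capitals CACGTG mark an E-box, whose letters stood in 12.1% of all windows and in 2 of 17 of heat shock genes (11.8%). They stood in 5 of 16 windows of core clock genes (31.2%) and in 7 of 24 of immediate early genes (29.2%). The letters of a cAMP response element were sought too. They stood in 3.68% of all windows, in 3 of 24 of immediate early genes (12.5%) and in 1 of 134 of genes with a called difference above 0 (0.746%).
Hsph1: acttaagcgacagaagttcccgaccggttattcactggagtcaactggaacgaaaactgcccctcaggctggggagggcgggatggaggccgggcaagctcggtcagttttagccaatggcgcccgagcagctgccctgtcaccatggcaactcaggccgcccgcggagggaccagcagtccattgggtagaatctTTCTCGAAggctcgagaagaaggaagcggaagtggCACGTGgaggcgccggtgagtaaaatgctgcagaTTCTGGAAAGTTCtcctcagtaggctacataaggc
Chordc1: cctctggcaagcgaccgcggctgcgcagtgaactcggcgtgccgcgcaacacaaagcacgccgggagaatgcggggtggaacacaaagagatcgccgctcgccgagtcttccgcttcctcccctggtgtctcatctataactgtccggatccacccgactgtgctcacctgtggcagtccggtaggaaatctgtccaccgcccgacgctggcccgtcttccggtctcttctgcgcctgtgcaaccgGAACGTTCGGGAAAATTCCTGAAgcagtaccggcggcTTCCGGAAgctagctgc
Hspb1: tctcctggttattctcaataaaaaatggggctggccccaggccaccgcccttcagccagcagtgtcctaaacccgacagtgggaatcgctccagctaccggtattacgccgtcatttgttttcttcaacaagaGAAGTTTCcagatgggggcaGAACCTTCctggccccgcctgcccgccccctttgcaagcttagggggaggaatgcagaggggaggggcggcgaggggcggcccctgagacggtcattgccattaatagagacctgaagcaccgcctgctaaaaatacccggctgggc
Ahsa1: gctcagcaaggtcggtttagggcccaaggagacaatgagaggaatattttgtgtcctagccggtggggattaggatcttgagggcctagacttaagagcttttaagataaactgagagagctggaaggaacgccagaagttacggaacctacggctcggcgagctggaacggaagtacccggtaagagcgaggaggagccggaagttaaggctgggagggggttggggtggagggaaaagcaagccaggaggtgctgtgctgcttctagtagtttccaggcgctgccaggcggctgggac
A match is a run of letters and was not tested for binding. Hsph1 has a second listed start whose window overlaps the one shown.

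Chaperones of the endoplasmic reticulum, which fold secreted proteins, rose at more members in cortex than in liver. Of 20 measured, 16 rose in cortex (against 9.92% of all genes) and 3 in liver (0.828%), 2 in both, and 2 had a tissue difference below 0 (0.738%). Median changes were 0.41 and 0.52, so the smaller number of liver calls went with a median no lower than that of cortex. Without mouse T27S3 no member had a called tissue difference, without T3N2, T3N3 or T3N4 1 had, and without T27S2 3 had. Hspa5, the central chaperone BiP, had nearly equal changes of 0.83 ± 0.13 in cortex and 0.85 ± 0.27 in liver (adjusted p = 0.11), and a tissue difference of −0.01 ± 0.31 with a 95% interval from −0.64 to 0.61. The 2 members with a called difference serve the removal of misfolded proteins from that compartment. Herpud1 had liver levels of 7.68, 7.53 and 7.47 in controls and 8.71, 9.04 and 8.59 in deprived mice, and cortex levels of 5.54, 5.77 and 5.72 in controls and 5.81, 5.95 and 5.99 in deprived mice. All deprived values lay above the controls in both tissues, and the tissue difference of −0.98 ± 0.23 (adjusted p = 0.00682) was lost without mouse T27S3 (0.0623), T3N3 (0.0563) or T3N4 (0.0553). Its cortex call was lost without T3N2 (0.0624). Syvn1, a ubiquitin ligase, rose by 1.32 ± 0.25 in liver and 0.23 ± 0.07 in cortex, where the call was lost without T3N2 (0.0759), T3N3 (0.0553) or T27S5 (0.16). A tissue difference of −1.09 ± 0.27 (adjusted p = 0.0112) was lost without mouse T27S3 (0.0867) or T3N2 (0.0762). Of 11 integrated stress response genes, 2 rose in cortex (9.92% of all genes) and none was called in liver (1.48%). Atf4, a transcription factor of that response, was the 1 of the 11 with a called tissue difference, against 2.12% of all genes. It changed by 0.28 ± 0.05 in cortex and −0.36 ± 0.13 in liver. The difference of 0.65 ± 0.15 (adjusted p = 0.00434) was lost only without mouse T3N3 (0.0563) among the settings run.

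Genes called in both organs mostly moved the same way. Of 101 genes higher in deprived liver, 36 were also higher in cortex (35.6% of the liver calls, against 9.92% of all genes, and 2.98% of the 1210 cortex calls). Of 79 genes lower in liver, 14 were also lower in cortex (17.7%, against 7.31% of all genes, and 1.57% of the 891). Of these 50 genes 49 had the larger change in liver, and 8 had a called tissue difference. With its larger errors, a liver change had to be larger than a cortex change to be called, so the selection largely fixes the count of 49. The 50 became 19 without mouse T3N4, 20 without T27S2, 26 without T27S3, 27 without T3N2, 28 without T3N3 and 36 without T27S5. Irs2, an adaptor of the insulin receptor (chromosome 8, 10984681 to 11008458), had cortex levels of 5.93, 5.95 and 5.80 in controls and 6.78, 7.24 and 7.34 in deprived mice, and liver levels of 3.52, 3.07 and 3.04 in controls and 4.86, 5.68 and 4.34 in deprived mice. It rose 2.34-fold and 3.36-fold without overlap in either organ, with a tissue difference of −0.52 ± 0.50 (adjusted p = 0.733, 95% interval −1.51 to 0.46). P4ha1, a subunit of collagen prolyl hydroxylase, rose by 0.77 ± 0.11 and 0.96 ± 0.23, and Crem, a modulator of cyclic AMP responsive transcription, by 0.72 ± 0.09 and 0.70 ± 0.18. The interval of the tissue difference was narrowest for Crem among these 3, from −0.40 to 0.43, and for P4ha1 it ran from −0.70 to 0.32.

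These liver rises were not called without most of the single liver libraries. That of Irs2 (adjusted p = 0.0349) was lost without T3N2, T3N3, T3N4, T27S2 or T27S3 (0.0574 to 0.219, the highest without T27S3). That of Crem (0.0317) was lost without T3N2, T3N3, T3N4, T27S3 or T27S5 (0.0554 to 0.179, the highest without T3N2), and that of P4ha1 (0.0142) without T3N3, T3N4, T27S3 or T27S5 (0.06 to 0.0755). Cirbp, a cold-inducible RNA-binding protein whose level follows body temperature, fell in both organs (chromosome 10, 80165985 to 80172786). Its cortex levels were 5.99, 5.91 and 5.88 in controls and 5.13, 5.57 and 5.34 in deprived mice, and its liver levels 4.57, 4.57 and 4.84 in controls and 3.56, 3.58 and 3.45 in deprived mice. The falls of 1.49-fold and 2.18-fold left no overlap, and the tissue difference of 0.55 ± 0.24 was not called (adjusted p = 0.256).

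A smaller number of genes was called in opposite directions in the organs of the same animals. All 10 such genes had a called tissue difference, 7 of them higher in cortex and lower in liver and 3 the reverse. Opposite changes add up in the tissue difference, so the selection largely fixes that all 10 were called. The 7 are 8.86% of the 79 genes lower in liver, where 9.92% of all genes were higher in cortex, and the 3 are 2.97% of the 101 higher in liver, where 7.31% of all genes were lower in cortex. Neither share lay above that of all genes. S1pr1, a receptor for sphingosine 1-phosphate (chromosome 3, 115710433 to 115715072), had cortex levels of 7.22, 7.17 and 7.36 in controls and 7.63, 7.47 and 7.56 in deprived mice, and liver levels of 6.57, 6.51 and 6.64 in controls and 5.81, 5.95 and 6.25 in deprived mice. Every deprived cortex lay above and every deprived liver below the controls, with a tissue difference of 0.87 ± 0.14 (adjusted p = 7.31e-05). Sh3pxd2b, an adaptor of podosomes (chromosome 11, 32347820 to 32428173), had cortex levels of 4.70, 4.53 and 4.69 in controls and 5.22, 5.01 and 5.22 in deprived mice, and liver levels of 1.20, 1.34 and 0.51 in controls and −1.27, 0.05 and −0.14 in deprived mice. It moved 1.42-fold up in cortex and 2.78-fold down in liver, with a tissue difference of 1.98 ± 0.33 (adjusted p = 7.31e-05). Arhgap42, which inactivates the GTPase RhoA (chromosome 9, 8994329 to 9239101), did the reverse: its cortex levels were 5.05, 4.98 and 4.77 in controls and 4.45, 4.54 and 4.31 in deprived mice, and its liver levels 6.48, 6.44 and 6.49 in controls and 6.91, 7.15 and 6.84 in deprived mice. The changes were 1.41-fold down and 1.42-fold up, and the difference was −0.99 ± 0.17 (adjusted p = 0.000131).

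The other members with higher cortex and lower liver values were Eml5, a microtubule-associated protein (difference 1.10 ± 0.21), Inf2, a formin (0.90 ± 0.19), Ripor1, an inhibitor of RhoA (0.77 ± 0.15), Sipa1l2, a GTPase-activating protein for Rap (1.38 ± 0.32), and Klhl8, a substrate adaptor of a ubiquitin ligase (0.87 ± 0.17). Dnmbp, an activator of Cdc42 (−1.21 ± 0.22), and Rab30, a small GTPase of the Golgi (−1.67 ± 0.38), were lower in cortex and higher in liver. The called differences of all 10 held under all 27 settings except those of Sipa1l2, lost without mouse T3N4 (0.0549), and Rab30, lost without mouse T27S2 (0.157) or T3N3 (0.055), without the liver library of T27S2 (0.112) and with the 12 libraries alone (0.107). The calls within single organs were less stable. The liver calls of S1pr1 (0.0627) and Sh3pxd2b (0.11) were lost without T27S2, that of Sh3pxd2b also without T3N3 (0.053), and those of the other 8 without 2 to 6 of the liver libraries each, with adjusted p up to 0.427 (Rab30 without T27S2). With the unlabelled liver factor as a covariate 4 genes were called in opposite directions, and with the 6 libraries of each organ alone 2 were. Leaving out 1 mouse gave 1 without T3N3, 2 without T27S2, 4 without T3N2 or T3N4, 5 without T27S3 and 10 without T27S5. The cortex calls of Dnmbp, Inf2, Klhl8, Rab30 and Sipa1l2 were lost without 1 to 3 of the cortex libraries each (adjusted p 0.0513 to 0.0986).

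Genes that fell in cortex with no call in liver included several with weak support. Ttr, a thyroid hormone carrier that the choroid plexus and the liver secrete, had cortex levels of 6.77, 3.89 and 2.00 in controls and 0.74, 0.48 and 1.38 in deprived mice, and liver levels between 12.20 and 12.53. The controls were spread widely, with T3N2 highest, and the tissue difference of −3.40 ± 0.87 (adjusted p = 0.0156) was lost without mouse T3N2 (0.263), T27S2 (0.0765), T27S3 (0.0687) or T3N3 (0.051), without the cortex library of T3N2 (0.219) or T27S3 (0.0525) and with the 12 libraries alone (0.155). Of 10 choroid plexus markers 7 were measured in cortex, and 4 of these were lower in deprived mice, against 7.84% of all cortex genes. Their summed level was 268 to 438 CPM in controls, highest in T3N2, and 231 to 248 CPM in deprived mice. Ttr itself is on that list and enters its counts and sums, so they are not separate from the values of Ttr. Meningeal and fibroblast markers had 2 of 10 members lower, with sums of 108 to 149 CPM in controls and 87.6 to 104 in deprived mice. Of the thalamus and hypothalamus markers 5 of 10 were measured in cortex and 1 was lower, with sums of 17.6 to 60.5 CPM in controls, highest in T3N3, and 16.3 to 18.5 in deprived mice. The part of these cells in the cortex changes was not tested. F5, which encodes coagulation factor V, had a cortex change of −1.21 ± 0.30 and a tissue difference of −1.24 ± 0.34 (adjusted p = 0.026), which was lost without mouse T3N2 (0.36), T27S2 (0.13) or T27S3 (0.0881), without the cortex library of T3N2 (0.38), T27S2 (0.083) or T27S3 (0.0582) and without the liver library of T3N3 (0.0546) or T3N4 (0.0542), and with the 12 libraries alone (0.244). Rasgef1b, an exchange factor for Ras-family GTPases, fell in cortex by 0.52 on the log2 scale (−0.52 ± 0.08) with a liver change of 0.64 ± 0.26. Its tissue difference of −1.16 ± 0.28 (adjusted p = 0.00903) was lost without mouse T27S3 (0.147), T3N4 (0.146) or T27S2 (0.0514), without the liver library of T27S3 (0.0937) or T3N4 (0.0594), and with the 12 libraries alone (0.144).

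The same tissue difference was measured after 6 h of deprivation in other mice, killed at T30 (n = 3) and compared with undisturbed mice of zeitgeber time 6 (n = 5). The controls J76N1 and J76N2 carry another batch label than the other mice of this comparison, so unlike the 3 h comparison it mixes batches. At 6 h 1482 of 12194 genes (12.2%) differed, 736 above and 746 below. Of the 169 genes above at 3 h, 98 were called above at 6 h (58.0%, against 6.04% of all genes), none was called below, and 162 had the same sign. Of the 90 below, 42 were called below (46.7%, against 6.12%), 1 was called above (Hic2, a transcriptional repressor named after its values were seen, at −1.12 ± 0.32 and then 1.19 ± 0.29, whose call at 3 h was lost without any 1 of the 6 mice) and 78 had the same sign. Median differences were 0.77 at 3 h and 0.53 at 6 h for the 169, and −0.87 and −0.49 for the 90. The members were chosen at 3 h for their size, so the smaller medians at 6 h are a description.

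Single genes differed in what remained at 6 h. Serinc2 (2.03 ± 0.30), Sik1 (2.37 ± 0.49), Dusp4 (1.65 ± 0.47), Srebf1 (1.08 ± 0.30), Hsph1 (−1.58 ± 0.29) and Hsp90aa1 (−1.35 ± 0.27) had called differences at 6 h in the direction of 3 h. Those of Per2 (0.53 ± 0.35, adjusted p = 0.356), Angptl4 (−0.77 ± 0.55, 0.395), Slc25a34 (−0.09 ± 0.30, 0.884), Lpin2 (0.24 ± 0.24, 0.584), S1pr1 (−0.16 ± 0.13, 0.48) and Ttr (−0.06 ± 0.79, 0.973) were not called. Whether the tissue difference itself changed between 3 h and 6 h was not tested. Of the 22 heat shock genes 8 were called below at 6 h, against 6.12% of all genes. The immediate early transcription factors and effectors had 8 and 7 of 16 called above, against 6.04%. Calls were more common at 6 h than at 3 h over all genes, so these counts are not comparable with those at 3 h.

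**Figure D4:**
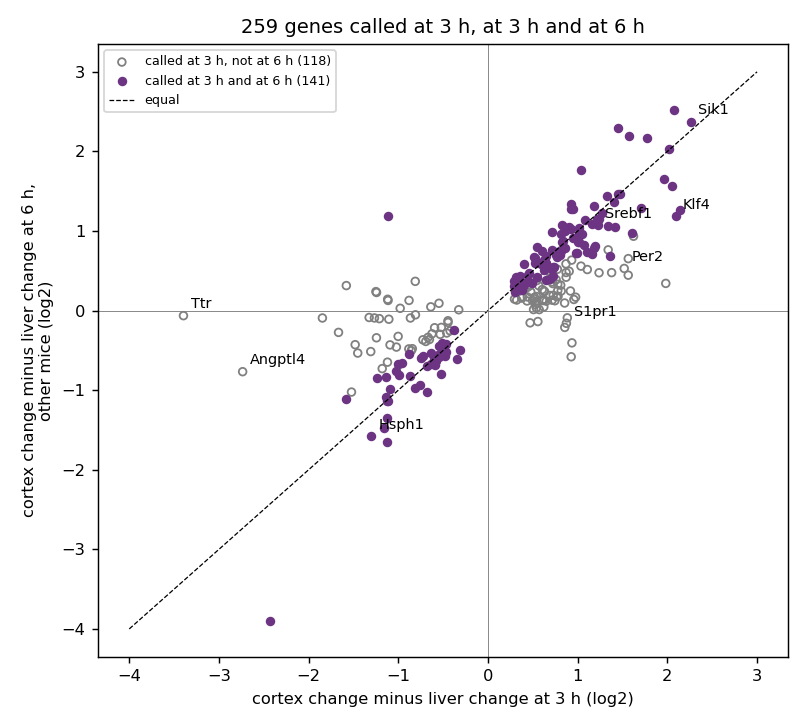
Tissue difference (cortex change minus liver change, log2) of the 259 genes called at 3 h, with the value at 3 h on the x axis and the value at 6 h in other mice on the y axis. Filled points were also called at 6 h, and points such as Angptl4, Per2 and S1pr1 lie closer to 0 at 6 h than at 3 h.

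Large housekeeping groups had no called tissue difference, where 2.12% of all genes had one, so lists of these sizes would hold few or no calls at that share. None of 77 ribosomal protein genes or 78 respiratory chain genes was called, nor was any of 23 ribosome biogenesis genes or 15 splicing factor and CLK kinase genes. In cortex 7 of the splicing genes, 5 of the ribosome biogenesis genes and 3 of the respiratory chain genes rose, where 9.92% of all genes did. No member of the 4 lists was called in liver, where 1.48% of all genes were. In the order of the lists above, median tissue differences were 0.06, 0.07, 0.06 and 0.13.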

How the data were processed

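The authors deposited log2 CPM values (read counts scaled to a fixed library total, on a log2 scale), 1 table per tissue. Per the submitters' processing notes, the tools were edgeR, STAR 2.7.0e and fastp, with build GRCm38 (mm10). Per the labels, the extraction protocol describes liver, and how cortex was prepared was not found in them. Entries without a name (77 in cortex, 35 in liver) were left out. The deposited values had been adjusted: the label batch had been removed in cortex, and in liver a factor of 3 levels that no label gives. Its levels could be read only within each group, so the size of each level is unknown. In all, 50 liver libraries stood at the most common level of their group, and 8 and 4 departed from it in different ways. The liver fits do not know of this factor, so their p-values are somewhat too small.

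Log2 values were tested as deposited, without pseudocount or filter, in R 4.3.3 by limma 3.58.1 (eBayes with a mean trend after lmFit, two-sided, Benjamini-Hochberg over all genes, threshold 0.05). The tissue difference came from 1 fit of both libraries of all 62 mice in 34 groups with batch within tissue (88 residual degrees of freedom), and the change within a tissue from its 62 libraries in 17 groups (44). The fit was tested on simulated data. Cortex and liver libraries are paired because they come from the same animal. Residuals of the same mouse had a median correlation of 0.0300 (−0.0879 to 0.161), and the block was an alternative.

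Members, gene lists and tests were chosen with earlier results of these data known, and the promoter motifs after seeing them. Named genes were, among called genes whose deprived and control mice did not overlap in cortex minus liver value, the 10 largest in each direction with a mean of at least 0 in both tissues and the 5 largest without that limit. To these came 10 genes called in both tissues in the same and 10 in opposite directions, up to 4 members of each list by smallest p, and a list always reported. The rule named 195 genes, 54 of them with a called tissue difference. A few of the 54 (among them Wisp1, Fam83f, Tmem220 and Slc17a9) are given only by their values in the closing section. Of the named genes without such a call, only some are described. Positions came from GENCODE vM21 (GRCm38). The labels do not say how reads shared by overlapping or near-identical genes were counted.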

Additional observations from a re-analysis of the deposited data

Results flagged for a closer look

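The tissues differed in their change by the test of the difference itself at 259 genes, of which 54 were named by rule (Ahsa1 and Hic2, singled out after their values were seen, are described above). The cortex change minus the liver change (log2, limma) was above 0 and largest for Sik1 (2.26), Gadd45a (2.14), Klf4 (2.09), Fam83f (2.07), Tnfaip8l3 (2.05), Serinc2 (2.02), Sh3pxd2b (1.98), Dusp4 (1.97), Ripor2 (1.77), Nab2 (1.70), Sertad1 (1.62), Wisp1 (1.57). It was smaller and above 0 for Dusp14 (1.56), Rab36 (1.56), Per2 (1.52), Trib1 (1.47), Sipa1l2 (1.38), Pim1 (1.34), Spred3 (1.32), Ier5 (1.28), Klf2 (1.24), Srebf1 (1.23), Eml5 (1.10), Homer1 (0.95), Inf2 (0.90), S1pr1 (0.87), Klhl8 (0.87), Ripor1 (0.77), Spred2 (0.73), Atf4 (0.65). It lay furthest below 0 for Ttr (−3.40), Angptl4 (−2.74), Ttll8 (−2.43), Slc25a34 (−1.85), Rab30 (−1.67), Klf11 (−1.58), Slc17a9 (−1.52), St3gal5 (−1.31), Hsph1 (−1.30), Lpin2 (−1.25), Tmem220 (−1.24), F5 (−1.24). It was closer to 0 and below it for Rapgef4 (−1.23), Dnmbp (−1.21), Rasgef1b (−1.16), Hsp90aa1 (−1.12), Syvn1 (−1.09), Hspa8 (−1.02), Arhgap42 (−0.99), Herpud1 (−0.98), Foxo3 (−0.55), Hsp90ab1 (−0.55), Foxo1 (−0.52), Ghr (−0.42). Of the 54 calls 16 held under every one of the 27 settings, and no value changed its sign.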

How the results depend on the processing

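With the mouse as a replicate block (paired cortex and liver libraries) 254 genes had a called tissue difference, 230 of them among the 259, and the block ended the call of 1 of 54 named genes (Spred2). Fitting the 12 libraries alone gave 236 calls (159 shared) and the unlabelled liver factor as a covariate 205 (all among the 259). Other alternatives (no batch term, low-value filter, centring, rescaling, pseudocount of 1 CPM, no mean trend) gave 237 to 296, and the 6 h count with the factor, chosen after seeing the data, was 1318. Leaving out a mouse or library left 1.02% to 2.39% of the tested genes called, against 2.12% (74 to 176 genes above, 42 to 116 below), and 1874 to 2309 genes called in cortex (1041 to 1242 higher, 833 to 1107 lower) and 88 to 186 in liver (52 to 102 higher, 31 to 84 lower), against 2810 and 200. With the 6 libraries of each tissue alone, 55 liver genes were called (37 higher, 18 lower), 21 genes moved the same way in both tissues and 2 in opposite ways. With the factor as a covariate 53 liver genes were lower and 4 genes moved in opposite ways. Without single mice, chosen after seeing the data, 19 to 36 genes moved the same way and 1 to 10 opposite ways. The share of liver calls that were higher moved from 56.5% to 67.3% with the 6 libraries alone. No named gene changed its sign at a call. Read depth is unknown, liver errors were about as large as many cortex changes, and with 3 mice a group a gene without a call may still differ between the tissues.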
